A study of Mus musculus with 8 samples.

Results

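CEBPA is a transcription factor that commits blood progenitors to the granulocyte and monocyte lineages. It is made as a full-length protein, p42, and as p30, a shorter form that starts at an internal start codon, lacks part of the activation domain and is favoured by mutations found in acute myeloid leukaemia. Both forms keep the DNA-binding and leucine zipper domain, through which CEBP proteins pair with one another and with ATF and AP-1 factors. Pairing need not be the same for both, since the study pulled down ATF4 with p42 but not with p30. H3K27ac is the acetylated form of histone H3 found at enhancers and promoters in use, and HiChIP with an antibody against it counts how often such regions lie close together in the nucleus.

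The contacts of untreated cells that carried p42 were compared here with those of untreated cells that carried p30. The host was HPC-7, a mouse haematopoietic progenitor line grown in stem cell factor, whose own CEBPA is very low per the study. Cells were transduced with a retrovirus for p42 or p30 fused to the ERT2 domain, were sorted as a pool on a green fluorescent reporter, and were given 4-hydroxytamoxifen, which lets the fusion enter the nucleus, in both groups. The groups were p42 UT and p30 UT, where UT stands for no LPS, with 2 libraries each, which makes 4 of the 8 libraries of the series. The other 4 were taken after 2 h of LPS at 100 ng/mL. The authors deposited 1 list of significant contacts (loops) per group with the libraries pooled, so no spread between replicates could be measured and every difference compares those libraries, not the conditions. In such bulk material a difference in the share of cells that use a region and a difference in its use per cell cannot be told apart.

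A loop joins a pair of bins of 5 kb with more contacts than the caller expected from their distance and coverage. The p42 UT list held 158233 loops and the p30 UT list 80489, together 238722 of the 411922 loops of all 4 lists. The caller's models rested on 18999991 contacts in p42 UT and 17976716 in p30 UT, so depth was close, but the share of these contacts that lay in loops was 25.2% against 12.7%. Because of this gap both lists were cut to equal length, keeping 80489 loops by ascending q-value, which went down to a q-value of 8.49e-05 in p42 UT and kept the whole p30 UT list. The cut p42 list had a median of 29 contacts per loop and the p30 list 20, and their median distances were 40 and 45 kb. Of the markers of the labelled cell type, all 10 progenitor genes were in a promoter loop, which is a loop that ends on the bin of a gene's start site, in either list. Of 6 markers each, loops were found for 2 of B cells, 1 of T cells, 1 of hepatocytes and 0 of neurons and of fibroblasts.

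Some partner regions of the genes described below are shown first, and were chosen because they hold a match to TGATGCAA. These 8 bases form a composite site on which a CEBP protein can pair with an ATF or AP-1 partner. The bases below surround matches, in capitals, in bins that were joined to the start sites of Cebpe, Cebpd, Cebpb, Samsn1, Nfya and F7 in the p42 UT list. They were read from GRCm39, the assembly behind mm39, on the strand that carries the match, and windows that touch an annotated exon were left out.

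Cebpe partner, minus strand, in an intron of 1700123O20Rik, chr14:54925350-54925379: ttggagagacaTGATGCAAgaaccctctgt

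Cebpe partner, plus strand, intergenic, chr14:55029794-55029823: taacaagcagaTGATGCAAggggctgaaga

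Cebpe partner, plus strand, intergenic, chr14:55032423-55032452: tccttcagataTGATGCAAgtgtttcttgt

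Cebpd partner, minus strand, in an intron of Spidr, chr16:15890244-15890273: aaattattttaTGATGCAAatgaagtttta

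Cebpd partner, minus strand, in an intron of Spidr, chr16:15906649-15906678: ggagctgaaatTGATGCAAaaagcaagagg

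Cebpb partner, minus strand, intergenic, chr2:167588114-167588143: gcctgactcgcTGATGCAAaggaaaagggg

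Samsn1 partner, minus strand, in an intron of Samsn1, chr16:75726712-75726741: cttagaatgatTGATGCAAcccaccgtaag

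Nfya partner, plus strand, in an intron of Trem3, chr17:48556271-48556300: attagaaatggTGATGCAAtctggtaaagc

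F7 partner, minus strand, in an intron of F10, chr8:13091067-13091096: gttgtgtcctgTGATGCAAggcaggggggt

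Promoter loops were compared gene by gene to ask at which genes the contacts differed between the isoforms. With lists of equal length, promoter loops were found for 8993 of 21738 protein-coding genes, 7793 in p42 UT and 8093 in p30 UT. The mean was 4.12 loops per gene in p42 UT and 3.88 in p30 UT, 3763 genes had more in p42, 3395 had more in p30 and 1835 had as many, and the median difference was 0. A gene was called when its counts differed by at least 3 loops and at least 2-fold. By this rule 632 genes (7.03%) had more loops in p42 and 405 (4.5%) had more in p30. The lists as deposited gave 3412 and 47 genes. Since the cut removes loops from the p42 list alone, the deposited lists must keep all p42 calls and can only take p30 calls away, which makes them no second check. When loops were ranked by the ratio of contacts to expected contacts instead, 1025 and 651 genes were called, among them 361 of the 632 and 163 of the 405. With both lists cut at a q-value of 1e-05, which left more loops in p42, 2168 and 10 were called.

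**Figure D1:**
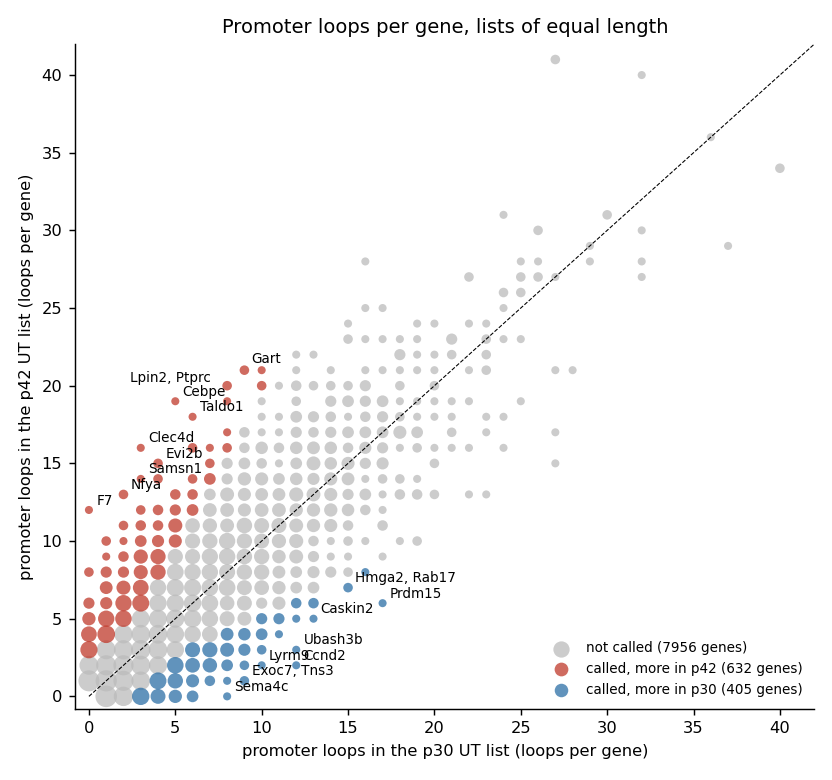
Number of promoter loops per gene in the p30 UT list (x axis) and the p42 UT list (y axis), both cut to 80489 loops. Each point is a pair of counts and its area grows with the log of the number of genes; red and blue points pass the call rule (632 and 405 genes), the dashed line marks equal counts, and the labelled genes are the 10 with the largest difference in each direction.

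At equal length by q-value the largest difference in favour of p42 was at another member of the same family. As deposited Cebpe, with a difference of 23 loops, came after Clec4d (25) and Lpin2 (24), and by the ratio ranking, with 17, after Clec4d (21). With the neighbours of the start-site bin it had 23, after Lpin2 and Samsn1 (25 each). With loops of 10 contacts or more it had 14, after Clec4d (15). Between peak bins it had 10, after F7 and Ptprc (12 each). With both lists cut at a q-value of 1e-05 it had 17, as did Lpin2. With loops of 20 kb or more it stayed ahead of Clec4d, 15 to 14. Cebpe (chromosome 14, 54947817 to 54949631) encodes CEBP epsilon, which drives the late steps of granulocyte maturation. Its start-site bin had 19 loops in p42 UT and 5 in p30 UT at equal length, and 28 and 5 as deposited. All 5 of the p30 loops were also in the p42 list, and 14 of the 19 were in the p42 list alone. The 19 partners lay 20 to 150 kb away, 14 of them upstream, across Slc7a8, Rnf212b and Homez, and 5 downstream over Acin1 and the neighbouring 1700123O20Rik. At the 5 loops in both lists the p42 library pool had 144 contacts, 7.90 times the expected number, and the p30 pool 69, which was 5.31 times. The loop with the bin 80 kb upstream, from 55025001 to 55030000, had 32 contacts against 11. Downstream, the bin from 54925001 to 54930000, which holds the first of the sequences above, had 56 contacts in p42 UT and was not listed in p30 UT. Coverage is the number of reads in a bin, and its log2 ratio of p42 to p30, centred on all peak bins, ran from -0.10 to 0.34 over the Cebpe partners that had a value. The coverage of the Cebpe start-site bin itself was 12582 in p42 UT and 4543 in p30 UT, a 2.34-fold difference after the same centring. TGATGCAA was in 4 of the 19 Cebpe partner bins, 6 of 16 at Clec4d, 3 of 13 at Cebpd, 1 of 20 at Cebpb, 2 of 20 at Ptprc and 0 of 20 at Lpin2, while 10.9% of all peak bins held it. Partner bins of promoter loops in the p42 list alone held it in 10.8%.

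Of the other CEBP genes, 3 had more loops in p42 and Cebpa had as many. Cebpd (chromosome 16, 15705150 to 15708895), induced early in inflammation and maturation, had 13 loops in p42 UT and 5 in p30 UT. Its partners reach downstream through Spidr to 260 kb. The bin 185 kb downstream, from 15890001 to 15895000, had 34 contacts in p42 UT where 1.85 were expected, was not listed in p30 UT, and its coverage ratio was 1.67 on the log2 scale. This bin holds the first of the Cebpd sequences above. At the 5 Cebpd loops in both lists the contacts were 184 and 95. Cebpb (chromosome 2, 167530835 to 167532338), needed for granulocyte production under stress, had 20 and 13 loops, a difference below 2-fold. All Cebpb partners lie downstream, in bins without a protein-coding gene, and the one 20 kb away had 53 contacts in p42 UT, no listing in p30 UT and a centred log2 coverage ratio of 1.51. Cebpg, whose product lacks an activation domain, had 6 and 4. Cebpa itself (chromosome 7, 34818718 to 34821353) had 10 and 10, of which 9 partners were the same, and its start-site coverage was 3501 and 2495, 1.19-fold higher in p42 after centring. Reads of the construct that map to Cebpa could not be told apart from those of the locus. Over the 5 family members, 4 counts were higher in p42 and 0 in p30, with a median difference of 7 loops, and 2 were called in p42 against the background of 7.03%.

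**Figure D2:**
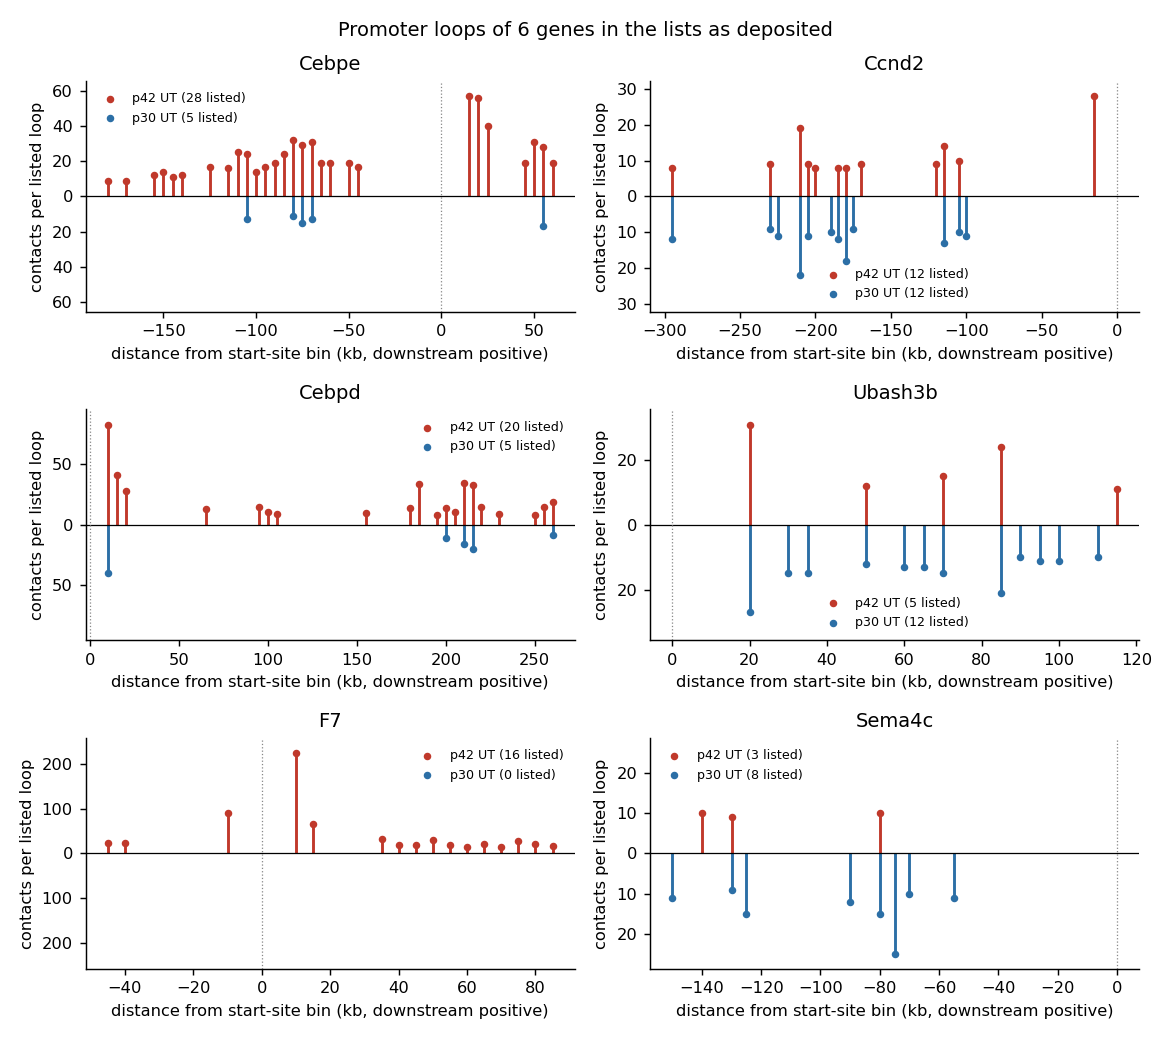
Contacts of each listed promoter loop by the distance of its partner bin from the start-site bin (kb, downstream positive), p42 UT above and p30 UT below the line, in the lists as deposited. Cebpe, Cebpd and F7 have 28, 20 and 16 loops in p42 UT against 5, 5 and 0 in p30 UT; Ccnd2 has 12 in each, and Ubash3b and Sema4c have 5 and 3 against 12 and 8; a missing bar means that the pair was not listed and its contacts are unknown.

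The other 9 of the 10 genes with the largest excess in p42 are described next. Clec4d, a C-type lectin receptor of monocytes and neutrophils, had 16 loops in p42 UT and 3 in p30 UT. Its p42 partners ran through the cluster of related lectin genes, whose similar sequences can share reads, with 61 contacts to the bin of the Clec4e start site 30 kb downstream and 28 to Clec4b2 85 kb upstream, both unlisted in p30 UT, and on to Necap1. F7 (chromosome 8, 13076002 to 13085809), which encodes coagulation factor VII, had 12 loops in p42 UT and 0 in p30 UT. The strongest F7 loop joined the neighbouring F10 start site with 224 contacts where 69.5 were expected. Coverage of the F7 start-site bin was 12782 in p42 UT. The bin was in no listed p30 UT loop, so its p30 coverage is unknown and no fold is given. After LPS the counts at F7 were 5 in p42 and 1 in p30.

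Ptprc encodes CD45, the common leukocyte phosphatase, and had 20 loops in p42 UT and 8 in p30 UT. All 8 of the p30 loops were among the 20, and the other 12 lay upstream, past Atp6v1g3, or 15, 20 and 55 kb downstream in the gene. The Ptprc start-site coverage was 17695 and 8264, 1.81-fold higher in p42 after centring. Samsn1, an adaptor gene of haematopoietic cells, had 14 and 3 loops, and the bin 55 kb downstream of its start, beyond the end of the gene, had 35 contacts in p42 UT, no listing in p30 UT and a log2 coverage ratio of 1.64. Taldo1 (transaldolase of the pentose phosphate pathway) had 18 and 6, Lpin2 (a phosphatidate phosphatase) 20 and 8, and Evi2b (a leukocyte membrane protein encoded inside an Nf1 intron) 15 and 4. Nfya, a subunit of the CCAAT-binding NF-Y complex, had 13 and 2, but its start-site bin also holds Oard1. Gart had 21 and 9, and shares its bin with Son, and its difference fell from 12 to 6 by the ratio ranking. Of these 10 genes, 9 had coverage in both lists, and their centred log2 coverage ratios ran from 0.20 at Nfya to 1.23 at Cebpe, with 5 of the 9 at least 1.5-fold higher in p42.

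The largest difference in favour of p30 was at Prdm15, a zinc finger regulator, with 6 loops in p42 UT and 17 in p30 UT. Ccnd2 (chromosome 6, 127102125 to 127129156), which encodes cyclin D2 for entry into the cell cycle, had 2 and 12, all with bins 100 to 295 kb upstream. At the Ccnd2 bin 180 kb upstream, from 127305001 to 127310000, p30 UT had 18 contacts and p42 UT 8, and the coverage of that bin was lower in p42 by a log2 ratio of -0.72. Ubash3b, which restrains receptor signalling in blood cells, had 3 and 12, all inside its own gene body. Hmga2, a chromatin factor of stem cells that is repressed during differentiation, had 7 and 15, all 140 to 405 kb upstream. Caskin2 had 5 and 13, Rab17 had 7 and 15, Lyrm9 had 2 and 10, Exoc7 had 1 and 9, Tns3 had 1 and 9, and Sema4c had 0 and 8. The start-site coverage of these 10 genes differed less than that of the p42 genes, with centred log2 ratios from -0.64 at Sema4c to 0.19 at Ccnd2, and 1 of the 10 was at least 1.5-fold higher in p30.

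These p30 differences depended on the length of the p42 list to different degrees. As deposited, 5 of the 10 had more loops in the longer p42 list, 2 had as many and 3 had fewer. Prdm15 then had 18 in p42 UT and 17 in p30 UT, Ccnd2 12 and 12 (its difference was -2 with both lists cut at a q-value of 1e-05 and -1 by the ratio ranking), Hmga2 17 and 15, and Rab17 21 and 15, whereas Ubash3b had 5 and 12, Sema4c 3 and 8 and Tns3 8 and 9. By the ratio ranking the difference was -9 at Prdm15, -8 at Ubash3b, -5 at Sema4c and at Tns3, -1 at Caskin2 and 0 at Exoc7. It turned to the p42 side at Hmga2 (2), Lyrm9 (1) and Rab17 (4). At the 12 Hmga2 loops in both deposited lists the contacts were 150 in p42 and 153 in p30. Among the 47 genes that passed the rule in favour of p30 as deposited, Ubash3b had the largest difference, but with both lists cut at a q-value of 1e-05 it had 2 more loops in p42, and at its 4 loops in both deposited lists the contacts were 82 in p42 and 75 in p30. Next in the deposited difference, and named after their values were seen, came Ggt5 (0 and 6 as deposited), a gamma-glutamyltransferase, Ier5 (3 and 9), an immediate early gene, Megf10 (1 and 6) and Pou2f1 (5 and 10), which encodes the octamer-binding factor OCT1. For Ubash3b the partners 30 and 35 kb downstream had 15 contacts each in p30 UT and were not listed in p42 UT, while those 20 and 85 kb downstream had 27 and 21 contacts in p30 UT and 31 and 24 in p42 UT. For Sema4c the strongest p30 loop, 75 kb upstream over Fam178b, had 25 contacts where 3.07 were expected, and was not listed in p42 UT.

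Genes were then counted by function, in lists chosen from textbook roles. They are described beside all genes with a loop, of which 7.03% were called in p42 and 4.5% in p30, with a median difference of 0.

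Granulocyte and monocyte genes were higher in p42 in 19 of 25, lower in 3 and equal in 3, with a median difference of 3 loops. The rule called 7 of the 25 in p42 (28.0%) and 0 in p30. Among those called, Anxa1 (an anti-inflammatory annexin) had 5 and 1, and Ncf4 (a subunit of the phagocyte NADPH oxidase) had 6 and 3. Csf1r, the macrophage growth factor receptor, had 3 and 0, Ltf (lactoferrin) had 3 and 0 and Ngp (a neutrophil granule protein) 7 and 3. Ncf1, at 18 and 13, Cyba, at 11 and 6, and Mpo, the primary granule peroxidase, at 10 and 6, did not pass the 2-fold rule. The start-site coverage of 8 of the 21 genes with a value was at least 1.5-fold higher in p42, against 4.51% of all genes with a value. Mpo had a coverage of 18014 in p42 UT and 8201 in p30 UT, and at its 6 loops in both lists 827 contacts against 358. When loops were ranked by the ratio to expected contacts the excess of members with more loops in p42 over those with more in p30 went from 16 to 6.

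Cytokine and chemokine genes were higher in p42 in 13 of 22 and lower in 5, and 3 were called in p42 (13.6%). These were Ccl4, a macrophage chemokine, with 11 and 4, the neutrophil chemokine gene Cxcl3 with 7 and 2, and Il23a, a subunit of interleukin 23, with 4 and 0. Ccl3, next to Ccl4, had 20 and 12, and Ccl9 had 25 and 16. Osm (oncostatin M) had 5 and 3, with a start-site coverage of 13836 and 5416. Tnf and Lta, whose start sites share a bin, had 13 and 13, and Csf3 had 8 and 10.

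Among genes of LPS sensing, 7 of 14 were higher in p42 and 4 in p30, and 2 were called in p42. These were Cd14, the LPS co-receptor, with 9 and 4, and Ly96, which encodes the MD-2 subunit of the same receptor, with 7 and 3. Ranked by the ratio, the balance of this list turned from 3 more members with an excess in p42 to -3. Of 16 genes of the NF-kB pathway, 9 had more, 4 had fewer and 0 were called, and its excess of 5 became 1 by the ratio ranking. Its inhibitor gene Nfkbia was at 17 and 9, with a start-site coverage of 5859 and 2707, and Nfkb2 at 7 and 13. Among interferon factors 3 of 9 had more, 4 had fewer and Irf7, at 1 and 5, was called in p30.

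Of 12 AP-1 genes with a loop, 6 were higher in p42, 2 were lower and 4 were equal. Jun had 6 and 3 and Fosl2 4 and 1, and both were called in p42. Fos had 17 and 13, with 354 contacts in p42 UT and 203 in p30 UT at 13 shared loops, Fosb 5 and 3, Fosl1 4 and 3, and Atf2 1 and 0. Junb had 3 and 3, Atf3 2 and 2, Atf7 4 and 4, and Jdp2 4 and 4. Jund had 8 and 13, and Batf 1 and 2. Batf2 and Batf3 had no loop in either list. Genes of the stress response were nearly even, with 6 more, 8 fewer and 6 equal of 20. In that list Ppp1r15b, which encodes a phosphatase subunit that restores translation, had 15 and 7, Sesn2 had 11 and 5, Atf4 had 4 and 3 and Ddit3 12 and 13.

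Stem and progenitor genes were higher in p42 in 12 of 22, lower in 5 and equal in 5, with a median difference of 1 loop. They were called in both directions, 3 of 22 each. Erg had 20 and 10, Kit 6 and 3 and Gata2 4 and 1, while among those called in p30 Hmga2 had 7 and 15 and Zfpm1, the partner of GATA1, 6 and 12. The Gata2 partners in p42 UT included bins 65, 75 and 85 kb upstream of its start site, with 21, 32 and 22 contacts, none of them listed in p30 UT. A distal enhancer that drives Gata2 in myeloid progenitors is known in this upstream interval. The 1 Gata2 loop in p30 UT also lay upstream, at 55 kb, and was not in the cut p42 list. The centred log2 ratio of p42 to p30 reads in the Gata2 start-site bin was -0.07. The list of erythroid and megakaryocyte genes was even at 4 and 4 of 12, with Klf1 (7 and 2) called in p42 and Itga2b (0 and 3) in p30. Of 4 mast cell, basophil and eosinophil genes with a loop, 2 had more and 2 had fewer, and Hdc, for histamine synthesis, had 5 and 2. Among cell cycle genes 12 of 25 had more and 9 had fewer. The rule called 1 of the 25 in p42 (4.0%) and 2 in p30 (8.0%). Those called in p30 were the D-type cyclins Ccnd2 and Ccnd1 (5 and 11), which had 12 and 12 and 7 and 11 as deposited. The inhibitor gene Cdkn1b (4 and 1) was called in p42 and had 2 and 2 after LPS, and the inhibitor gene Cdkn1a had 21 and 27. The cell cycle balance turned from 3 to -4 when loops were ranked by the ratio. The 58 ribosomal protein genes, taken as a list with no lineage bias, had more in 29 and fewer in 20, with 5 called in p42 (8.62%) and 2 in p30 (3.45%). Ranked by the ratio, its excess of members with more loops in p42 went from 9 to 26.

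**Figure D3:**
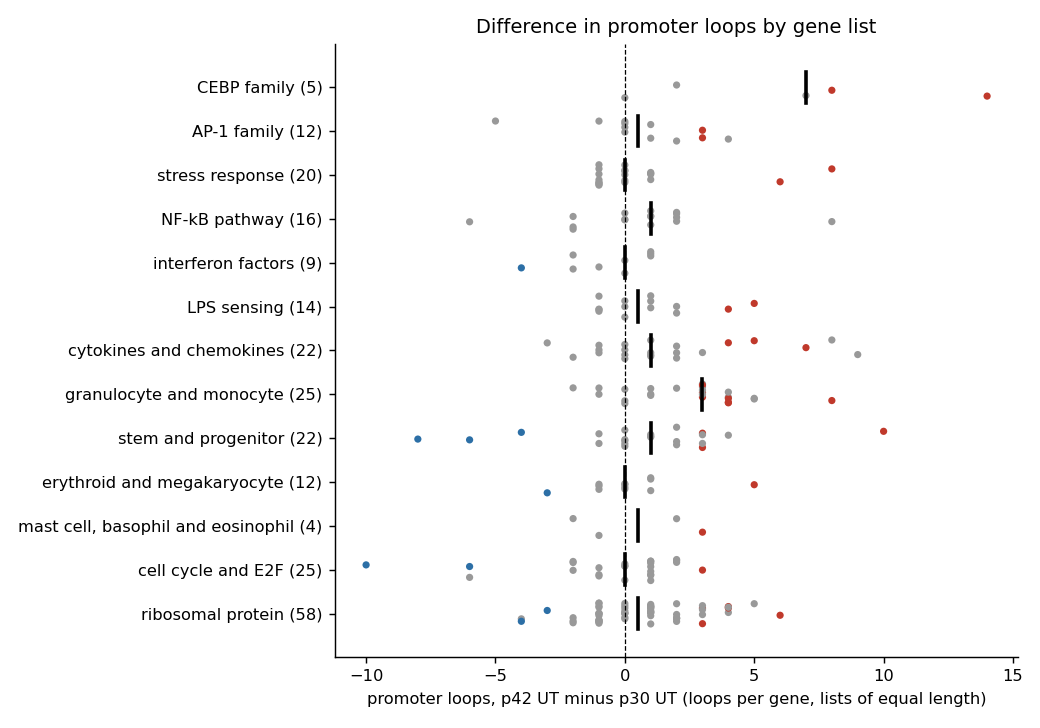
Difference in promoter loops (p42 UT minus p30 UT, lists of equal length) for each gene of the lists that had a loop; the number of genes is in brackets, the black bar is the list's median and the dashed line the median of all genes. Red and blue points were called in p42 and p30; the CEBP family and the granulocyte and monocyte genes have medians of 7 and 3 loops.

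Coverage of single bins was compared next. It counts the reads of a bin rather than its contacts, but it is known only for bins in a listed loop. Peak bins in both lists numbered 41107, and the peak flags of a bin were the same in both lists. Over these bins the log2 coverage ratio of p42 to p30 had a median of 0.24, and all ratios are given relative to it. At least 1.5-fold higher in p42 were 2258 bins (5.49%), and 1089 (2.65%) were higher in p30. Centred on bins without a peak the numbers were 5215 and 230, and scaled by modelled contacts, the total that the caller used in each list, 4389 and 304. Start-site bins had a median of 0.10 and other peak bins, called distal here, of -0.02. Of 7494 genes with a start-site peak bin in both lists, 338 (4.51%) were higher in p42 and 68 (0.907%) in p30.

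The 5 start sites with the largest excess in p42 were those of Nfil3, Cd14, Spatc1, Plac8 and Hp. Nfil3, a basic leucine zipper regulator of innate immune lineages, had a coverage of 4138 in p42 UT and 908 in p30 UT, 3.85-fold after centring. Its loops were 8 and 3, and they reached a region 135 to 175 kb downstream, at Auh, that was joined to Nfil3 in p42 UT only. Cd14 had 10900 and 2982, 3.09-fold, and Spatc1 had 7623 and 2248, 2.87-fold. Plac8, a gene of myeloid progenitors, had 6496 and 2011, 2.73-fold, with 10 loops against 1, all upstream towards Coq2. Hp, the acute phase protein haptoglobin stored in neutrophil granules, had 7410 and 2330, 2.69-fold, with 2 loops and 1.

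In the other direction Egfl7 led (chromosome 2, 26468286 to 26486789), a gene of haematopoietic and endothelial progenitors that hosts miR-126. Its coverage was 3361 in p42 UT and 6891 in p30 UT, 2.42-fold higher in p30, and its loops were 0 and 6. The neighbouring genes Fam167b and Lck, the latter a kinase of T cells, were 2.18-fold and 2.11-fold higher in p30, Serpinb6b 2.10-fold and Rbp2 2.02-fold. Mycn, a progenitor regulator, was also 2.02-fold higher in p30, but at low coverage, 548 and 936. These ratios kept their direction when bins were centred within coverage classes (deciles).

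Coverage and loop counts went together at the called genes. The 632 genes with more loops in p42 had a median centred log2 coverage ratio of 0.34 (quartiles 0.18 and 0.57, over the 519 with a value), the 405 with more in p30 of -0.12 (quartiles -0.33 and 0.06, 381 with a value), and the genes not called of 0.10. Of the 519, 121 were at least 1.5-fold higher in p42 and 0 in p30. Of the 381, 0 were higher in p42 and 23 in p30. The caller's expected counts include the coverage of both bins, but whether they remove its effect on the loop counts was not tested.

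The coverage ratio also moved with properties of the bins. Bins higher in p42 made up 1.97% of the coverage decile with the lowest values and 12.4% of the decile with the highest, while bins higher in p30 went from 8.03% to 0.462%. By GC content, the share higher in p42 was 13.0% in the decile with the lowest GC and 1.05% in the decile with the highest, and the share higher in p30 was 0.461% and 5.77%. When the ratio was centred within classes of coverage and GC content, 1501 bins were higher in p42 and 593 in p30, again an alternative chosen after seeing the data. The 330 peak bins of the X chromosome had a median of 0.18, while the medians of the autosomes lay between -0.07 and 0.07. Under that centring the 10 start sites named for coverage kept their direction, and the log2 ratio went from 1.95 to 2.18 at Nfil3, from 1.63 to 1.47 at Cd14 and from -1.28 to -1.21 at Egfl7.

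**Figure D4:**
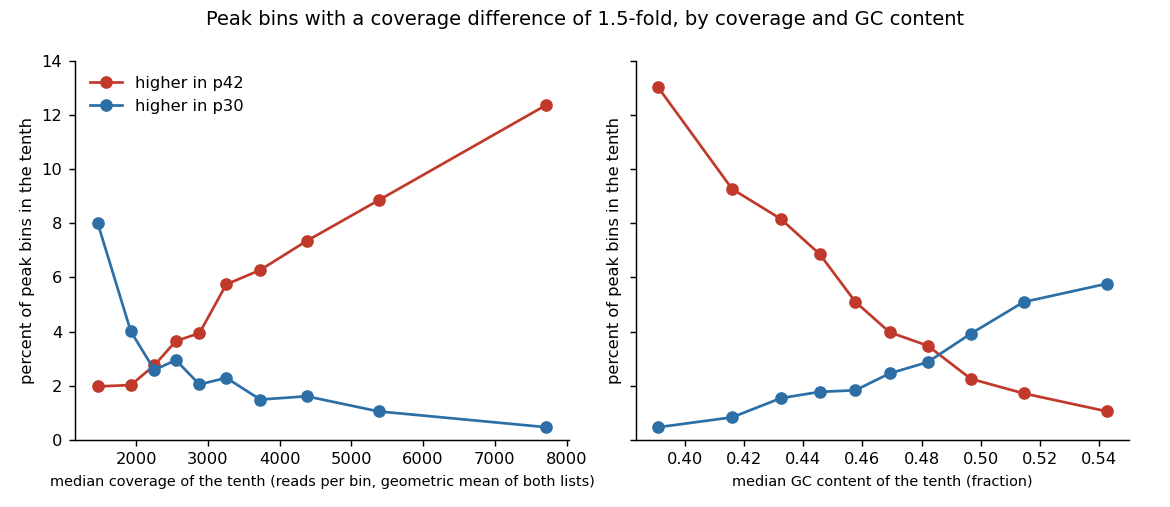
Percent of peak bins whose coverage was at least 1.5-fold higher in p42 UT (red) or in p30 UT (blue) in deciles of all 41107 peak bins, ordered by coverage (left, reads per bin) or by GC content (right, fraction). The red share goes from 1.97% to 12.4% with coverage and from 13.0% to 1.05% with GC content.

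Bins without a start site were compared in the same way. Of 49735 distal bins with a loop at equal length, 18010 had more in p42 and 22237 had more in p30, whereas by the rule for genes 2726 (5.48%) were called in p42 and 2577 (5.18%) in p30. The bin on chromosome 7 from 80145001 to 80150000, inside Blm, had 28 loops in p42 UT and 9 in p30 UT, a centred log2 coverage ratio of 1.06, and joined Blm, Furin and the myeloid kinase gene Fes. On chromosome 17 the bin from 84540001 to 84545000, in Thada, had 21 and 3 and was linked to Zfp36l2, which encodes a regulator of mRNA decay in progenitors. Its coverage was 11870 and 3768. A bin joined to Irf2bp2, on chromosome 8 from 127560001 to 127565000, had 30 and 14. The bin from 88090001 to 88095000 on chromosome 6, 31 kb from the start site of Rpn1, had 20 and 6, with a log2 coverage ratio of 1.14, and its partners held the start sites of Gata2, Rab7 and Dnajb8. On chromosome 2 a bin linked to Cd93 and Thbd had 18 and 4. On chromosome 13 the bin from 52975001 to 52980000, which joined Nfil3 and Auh, had 14 and 0.

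In the 8 distal bins named for the largest excess in p30 the centred log2 coverage ratios ran from -1.03 to 0.20. The bin upstream of Egfl7, on chromosome 2 from 26460001 to 26465000, had 3 loops in p42 UT and 22 in p30 UT, and its coverage was 5757 and 9963. It joined 10 start sites, among them Agpat2, Card9 and Inpp5e, at neighbouring genes. A bin in Ptprs on chromosome 17, from 56750001 to 56755000, had 3 and 20, with a log2 coverage ratio of -0.87, and its start-site partner was Ptprs. On chromosome 1 a bin in Ppfia4 had 6 and 20, and on chromosome 17 a bin linked to Sik1, a kinase that restrains inflammatory transcription, had 6 and 19. As deposited, the Egfl7 bin had 12 and 22 loops, the Ptprs bin 12 and 20, and the Sik1 bin 20 and 19.

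The loops themselves were compared to see which pairs of regions were particular to a list. Both lists of equal length shared 44818 loops, 55.7% of each (95% Wilson interval 55.3 to 56.0). The 35671 p42 loops that were not in the p30 list are called p42-only, and the 21420 p30 loops that were not in the longer p42 list p30-only. Many of them had a neighbour in the other list: with 1 bin of slack at each end, 11158 of the p42-only loops (31.3%) and 6642 of the p30-only loops (31.0%) remained. These intervals and shares cover counting error only.

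These classes are not alike by construction: p42-only loops passed the stricter q-value of 8.49e-05, while p30-only loops passed 0.01 and are absent from the longer p42 list, so lower contact counts in the p30 class go with its looser limit. The p42-only loops had a median of 23 contacts, 93.3% joined peak bins at both ends, and 16.5% were longer than 100 kb. The p30-only loops had a median of 14 contacts, 81.0% joined peak bins at both ends and 30.4% were longer than 100 kb. A start site lay at 1 end of 28.4% of the p42-only loops (95% Wilson interval 27.9 to 28.9) and of 23.1% of the p30-only loops (22.6 to 23.7), against 31.2% of the shared loops. Start sites lay at both ends of 4.35% and 3.52%. Loops between distal bins made up 67.3% of the p42-only and 73.4% of the p30-only loops.

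At loops with a start site at 1 end, the coverage ratio of both ends was shifted, relative to shared loops, towards the list that held the loop. The promoter end of p30-only loops nevertheless kept a median on the p42 side. For p42-only loops the median centred log2 ratio was 0.21 at the promoter (quartiles 0.04 and 0.40) and 0.10 at the partner (-0.10 and 0.33). For shared loops the medians were 0.13 and 0.03. For p30-only loops they were 0.04 at the promoter (-0.15 and 0.21) and -0.12 at the partner (-0.31 and 0.07). Of the partner bins, 93.9% carried a peak in p42-only and 84.4% in p30-only loops.

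Contacts were compared at the 59069 loops in both deposited lists. The median log2 ratio of contacts over expected contacts, p42 to p30, was 0.16 (SD 0.37 across loops, which are not replicates). Each loop was tested with a two-sided exact binomial test whose null share came from the expected counts. This test, with Benjamini-Hochberg adjustment, called 217 loops (0.367%) higher in p42 and 0 (0%) higher in p30 at an adjusted p under 0.05. At an unadjusted p under 0.05 there were 4415 and 112. With a null share from the modelled contacts, 2814 and 39 passed. With the null share centred on the median ratio, 7 and 0 passed, an alternative chosen after seeing the data. The 217 loops lay in 129 windows of 1 Mb, and the window with the most, 14, was that of the chemokine receptor gene Ccr1 on chromosome 9.

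The smallest p-value came from a long-range pair on chromosome 9, from a bin in Dapk2 (66170001 to 66175000) to a bin in Vps13c (67750001 to 67755000), 1580 kb apart. It had 107 contacts in p42 UT and 19 in p30 UT, where the caller expected 1.03 and 1.02 (exact binomial, adjusted p = 4.8e-11). The start site of B4galnt1 and a bin 30 kb away had 199 and 55 contacts (exact binomial, adjusted p = 1.22e-06). A pair of bins at Dusp1, a phosphatase that ends MAP kinase signalling, had 316 and 109 (exact binomial, adjusted p = 6.19e-06). At Ccr1 the loop from its start site to the bin 40 kb away had 169 and 54 contacts (exact binomial, adjusted p = 8.19e-05), and an adjacent pair that shares that bin had 954 and 513 (exact binomial, adjusted p = 1.24e-05). In the p30 direction the smallest p-value belonged to a pair between a bin in Nfix and one 85 kb away, near Dand5, with 20 contacts in p42 UT and 48 in p30 UT (exact binomial, adjusted p = 0.0838). It was followed by a pair of bins at Dusp29 and Dusp13b with 23 and 57 (exact binomial, adjusted p = 0.108). Neither passed the threshold.

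Sequences of the partner bins were searched on both strands for TGATGCAA and for motifs of other blood factors. In the partner bins of p42-only promoter loops 10.8% held TGATGCAA (95% Wilson interval 10.1 to 11.5), in those of p30-only loops 9.57% (8.64 to 10.6), and over all peak bins 10.9%. The distal bins with higher coverage differed more. TGATGCAA was found in 15.2% of the 1952 distal bins higher in p42 (13.6 to 16.8), in 10.8% of the 1023 higher in p30 (9.0 to 12.8) and in 11.1% of all distal peak bins. Distal bins higher in p42 had a median GC content of 43.0%, against 45.8% for all and 49.6% for those higher in p30. Among all distal bins weighted to the GC content of the p42 set 12.1% held it, and weighted to that of the p30 set 9.80%. The sets were not matched for coverage. Their median coverage in p42 UT was 5913 in the p42 set, 1919 in the p30 set and 3173 in all distal bins. Of the 9 other motifs searched, TTGCNNCAA, which is not the palindromic CEBP site and takes in TGATGCAA where a T precedes it, was found in 37.2% of the p42 set, against 35.1% at the same GC content. The AP-1 motif TGANTCA was at 81.0% against 79.2%, and the GATA motif AGATAAG at 54.4% against 51.6%. In the p30 set TTGCNNCAA was at 32.4% against 31.6%, TGANTCA at 78.1% against 76.2% and AGATAAG at 45.1% against 44.1%. The RUNX motif TGTGGTT was at 70.6% in the p30 set, where 73.9% held it at the same GC content. The PU.1 motif AGAGGAAGT was at 14.5% in the p42 set, where 11.9% held it at the same GC content, and at 15.2% in the p30 set, where 12.9% did. A match is a description of the letters in a bin of 5 kb, not a binding site.

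The LPS lists share no library with the untreated ones and were set beside them, cut to 78591 loops each. Of the 632 genes called in p42 UT, after LPS 344 had an excess in p42, 188 an excess in p30 and 100 equal counts. Of the 405 called in p30 UT, 92 had an excess in p42, 227 an excess in p30 and 86 equal counts. Among the 7956 genes not called, 2223 had more in p42 after LPS and 3350 had fewer. The rule was passed again in the same direction by 125 and 60 genes, and in the opposite one by 41 and 16. Of the genes not called in untreated cells, 258 passed it in p42 and 570 in p30 after LPS. Cebpe had 15 and 1 after LPS, a difference of 14 in both treatments, and Lpin2 had 21 and 11. Of the 10 genes with the largest excess in p42 UT, 7 had more loops in p42 after LPS, 1 as many and 2 fewer. Of the 10 with the largest excess in p30 UT, 3 had more in p30 after LPS, 3 as many and 4 fewer. Ccnd2 had 7 and 7 after LPS and Ubash3b 3 and 1, while Caskin2 had 5 and 9.

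**Figure D5:**
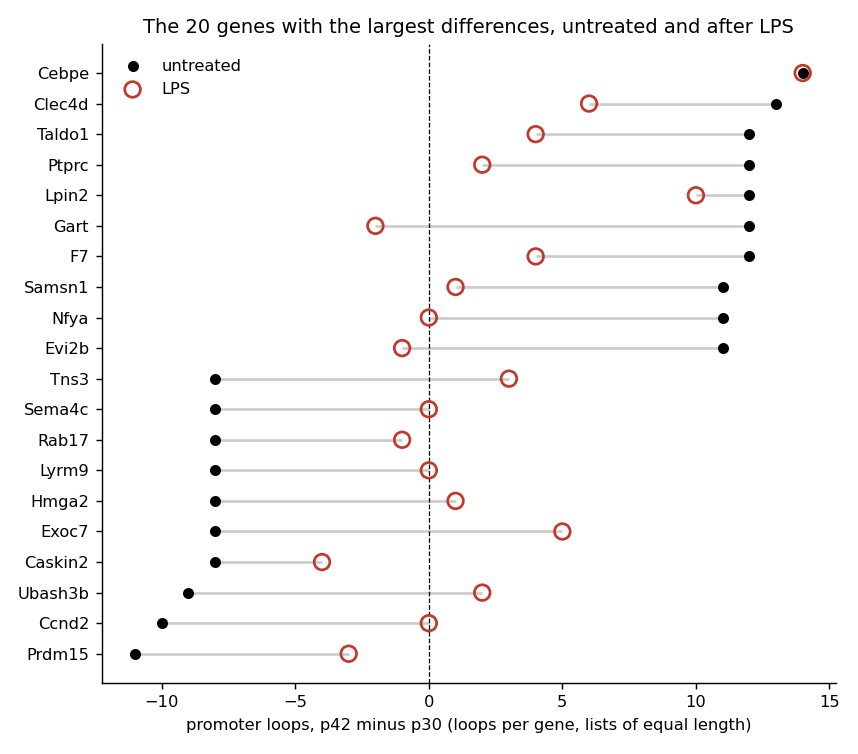
Difference in promoter loops (p42 minus p30) in untreated cells (filled points) and after LPS (open circles) for the 20 genes with the largest differences in untreated cells, lists of equal length per treatment. Cebpe differs by 14 loops in both, Lpin2 by 12 and 10, and the 10 genes with more loops in p30 UT lie between -4 and 5 after LPS.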

How the data were processed

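H3K27ac HiChIP libraries of HPC-7 cells with p42 or p30, untreated, were compared, 2 libraries per group. Per the study's methods, the authors mapped reads to mm39 (BWA 0.7.17 in the submitters' processing notes), used pairtools for ligation products and duplicates, and called loops with FitHiChIP. The deposited lists hold bins of 5 kb and q-values under 0.01. The authors deposited 1 list per group that stands for both replicates. How these were pooled is not given in the sources used here, so replicates were not compared. In each deposited list the contact count is a whole number of ligation products without normalization. The deposited expected count is the caller's estimate from distance and coverage bias, and the deposited contact probability is a fraction, that estimate over the modelled contacts. The q-value deposited by the authors is the caller's, with Benjamini-Hochberg adjustment. The deposited coverage counts the reads of a bin, and bins with an H3K27ac peak carry a mark. Pairs that are not listed have unknown contacts.

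Lists were cut to equal length by the smallest q-value. Start sites were those of the canonical transcripts of 21738 protein-coding genes of GENCODE M39. Named genes are the 10 per direction with the largest difference in promoter loops among those called, the 5 per direction with the largest start-site coverage ratio, members of the gene lists called by loops or coverage with all CEBP and AP-1 genes, and the 5 shared loops per direction with the smallest exact binomial p. List members outside this rule were named after their values were seen. Values of some genes that the rule names are not reported here. The lists, the members and the rules were chosen with earlier results of these data known. Calls on loop counts and coverage are by size, without a test. Binomial tests and 95% Wilson intervals cover counting error only. Alternatives changed list length, ranking, distance, promoter window, contact minimum, centring and thresholds. Sequences and GC content were read from GRCm39. The statistics were tested on simulated data. Python 3.11.15, numpy 2.4.6, pandas 2.3.3 and scipy 1.17.1 were used.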

Additional observations from a re-analysis of the deposited data

Results flagged for a closer look

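The ratio of p42 to p30 in the length of the deposited lists had opposite signs in the untreated and the LPS lists. On the log2 scale it was 0.98 in untreated cells and -0.27 after LPS. The share of modelled contacts that lay in loops gave 0.99 in untreated cells and -0.42 after LPS. Each value compares 1 pooled list with another, so the difference between treatments was not tested.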

How the results depend on the processing

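No paired analysis was possible because each group has 1 list for both replicates, and no replicate could be left out. The numbers of genes called by promoter loops, 632 in p42 and 405 in p30, were 3412 and 47 with the lists as deposited, 2168 and 10 with both lists cut at a q-value of 1e-05, 1025 and 651 with equal length by the ratio to expected contacts, and 100 and 66 at 5 loops and 3-fold. With the neighbours of the start-site bin, 701 were called in p30. The log2 ratio of genes with a promoter loop turned to 0.27 as deposited and 0.62 at the q-value of 1e-05. Differences at genes with more loops in p30 turned to the p42 side as deposited at Exoc7 (2), Hmga2 (2), Lyrm9 (1), Prdm15 (1) and Rab17 (6), at the q-value of 1e-05 at Exoc7 (1) and Ubash3b (2), and by the ratio at Hmga2 (2), Lyrm9 (1) and Rab17 (4). Loops in 1 list only numbered 99164 in p42 and 21420 in p30 as deposited, and 11158 and 15750 with 1 bin of slack between the lists of equal length (the p30 number is 6642 against the longer p42 list). Shared loops called were 2814 and 39 with a null share from the modelled contacts, 108 in p42 at 20 kb or more, and 7 in p42 with centred expected counts. Peak bins called were 5215 and 230 when centred on bins without a peak, 4389 and 304 when scaled by modelled contacts, 426 and 49 at 2-fold, and 1501 and 593 when centred within classes of coverage and GC content. Loops with a start site at 1 end made up 42.7% and 36.2% with neighbouring bins, and 30.9% in p42 with slack. The excess of list members with more loops in p42 over those with more in p30 became, as deposited, 12 for AP-1, 19 for the stress response, 11 for NF-kB, 5 for interferon factors, 14 for LPS sensing, 20 for cytokines, 27 for granulocyte and monocyte, 19 for stem and progenitor, 7 for erythroid, 6 for mast cell, 18 for cell cycle and 54 for ribosomal protein genes. By the ratio it was 1 for NF-kB, -3 for interferon factors, -3 for LPS sensing, 5 for cytokines, 6 for granulocyte and monocyte, 12 for stem and progenitor, 2 for erythroid, 1 for mast cell, -4 for cell cycle and 26 for ribosomal protein genes. The cause was not tested. The longer p42 list by itself raises its counts as deposited.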
